A study of Mus musculus with 40 samples.

Results

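Tumours grown from YUMM1.7 melanoma cells in Balb/c passages were set against tumours of the F passages at the level of single repeat copies, the individual transposable element insertions and other interspersed repeats of the mouse genome. The members were chosen by passage name. The Balb/c side holds the 7 tumours of passages Balb/c-1 (4 tumours) and Balb/c-2 (3 tumours), and the F side holds the 13 tumours of passages F0 (4), F1 (4) and F2 (5), together 20 of the 40 libraries. The repeat libraries of the 3 Balb/c-2 tumours were left out of the comparison and used as an alternative. The question was which copies differed in every passage of one side, that is, in each of the 6 pairs of 1 Balb/c passage and 1 F passage.

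All 20 libraries come from 1 cell line, YUMM1.7, a mouse melanoma line established from C57BL/6 mice, passaged as tumours in mice. Tumours were dissociated, the cells were cultured for 1 to 3 passages and poly(A) RNA was sequenced, so the values describe cultured tumour cells and not whole tumours. The labels give no genotype, age or treatment other than the passage name, and they do not spell out what F stands for. Each passage was made once, and the libraries were sequenced at separate dates that the labels do not tie to single libraries. Host strain, the number of passages already made and the sequencing date therefore cannot be told apart, and p-values measure the spread between tumours of these passages.

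Most transposable elements in the mouse genome are remnants that can no longer move, but many are still transcribed. L1 elements are LINEs, which carry their own promoter and the proteins for copying themselves. Endogenous retroviruses such as IAP and MMERVK10D3 are flanked by long terminal repeats (LTRs), which hold promoter sequence and can start transcripts of neighbouring genes. Other copies, above all the SINEs B1, B2 and B4, lie inside the exons and introns of genes and are read out as parts of the host transcript. Cells keep many of these elements silent by DNA methylation and by histone methylation that KRAB zinc finger proteins direct to them, and double-stranded RNA from repeats can be sensed by the receptors that start an interferon response.

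LTR copies at annotated gene starts are shown first, because in those printed below the changed repeat copy covers the annotated start of a transcript. Of the copies higher in every Balb/c passage, 16 overlapped the RefSeq window of 250 bases before to 50 bases after a gene start, and 13 of these 16 were LTR copies. Of the copies lower in every Balb/c passage, 5 overlapped such a window and 4 of the 5 were LTR copies. A short overlap counts, such as 13 bases at Ifi209, so not every one of these copies covers the start. How many of all tested copies overlap such a window, and how many of those are LTR copies, was not counted. These numbers therefore give no enrichment of LTRs. The windows of 3 genes with a higher copy and 1 gene with a lower copy, chosen after their values were seen, are printed on the gene's strand from RefSeq, build GRCm38.p6, with the bases of the repeat copy in capitals. The Gm52305 window (chr17:5527312-5527611, minus strand) and the Gm46220 window (chr10:38059091-38059390, plus strand) both enter an LTR annotated as MMERVK10D3_I-int with RLTR10D2. The Gm38450 window (chr4:23260534-23260833, plus strand) holds an MMERVK10D3_I-int copy with RLTR44B, and the 6720473M11Rik window (chr16:3633139-3633438, minus strand) holds an IAPEY4_I-int copy with RLTR46B.
Gm52305: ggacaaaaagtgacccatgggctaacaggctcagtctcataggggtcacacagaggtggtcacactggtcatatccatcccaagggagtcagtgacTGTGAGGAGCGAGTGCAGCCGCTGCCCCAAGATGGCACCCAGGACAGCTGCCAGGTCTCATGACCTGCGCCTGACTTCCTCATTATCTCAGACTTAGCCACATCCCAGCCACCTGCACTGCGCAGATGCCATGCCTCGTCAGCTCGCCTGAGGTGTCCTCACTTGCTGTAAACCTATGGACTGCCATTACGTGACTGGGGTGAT
Gm46220: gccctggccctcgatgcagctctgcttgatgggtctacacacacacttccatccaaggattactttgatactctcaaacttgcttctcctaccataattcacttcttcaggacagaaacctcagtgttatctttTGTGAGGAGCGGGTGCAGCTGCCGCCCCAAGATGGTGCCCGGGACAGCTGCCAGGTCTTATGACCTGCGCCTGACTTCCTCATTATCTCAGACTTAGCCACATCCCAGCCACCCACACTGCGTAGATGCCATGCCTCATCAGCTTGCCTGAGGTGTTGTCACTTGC
Gm38450: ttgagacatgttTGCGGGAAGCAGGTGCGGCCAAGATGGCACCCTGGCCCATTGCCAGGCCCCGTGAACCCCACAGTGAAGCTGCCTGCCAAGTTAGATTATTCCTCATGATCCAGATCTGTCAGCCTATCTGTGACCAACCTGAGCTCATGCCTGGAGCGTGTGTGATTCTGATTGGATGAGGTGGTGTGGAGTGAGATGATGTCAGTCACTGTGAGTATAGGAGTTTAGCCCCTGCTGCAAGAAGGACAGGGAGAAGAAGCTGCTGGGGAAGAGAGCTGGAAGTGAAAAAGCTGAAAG
6720473M11Rik: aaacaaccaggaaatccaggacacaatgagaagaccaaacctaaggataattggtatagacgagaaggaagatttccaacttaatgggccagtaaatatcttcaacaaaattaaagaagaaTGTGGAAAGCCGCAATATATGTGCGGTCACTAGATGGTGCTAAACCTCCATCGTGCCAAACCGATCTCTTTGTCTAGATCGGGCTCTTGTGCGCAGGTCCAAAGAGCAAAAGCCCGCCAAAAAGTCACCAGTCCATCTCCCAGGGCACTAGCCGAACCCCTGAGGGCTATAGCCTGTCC
The LTR stretches of Gm52305 and Gm46220, on different chromosomes, were identical at 152 of 166 bases (91.6%).

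The copy at Gm52305 (17, 5525305 to 5527515, in an intron of Zdhhc14) had a signal of 13.3 at the lowest, 99.5 at the median and 340 at the highest over the 7 Balb/c tumours, against 0, 0 and 5.27 over the 13 F tumours. Signal here means whole reads of the copy divided by 1 scaling factor per library. No Balb/c value overlapped an F value, and the log2 fold change was 5.85 ± 0.51 (SE). At Gm46220 the copy had 61.6, 238 and 443 in the Balb/c tumours and 0, 3.28 and 49.2 in the F tumours (log2 fold change 5.02 ± 0.49). At Gm38450 the copy had 220, 276 and 317 in the Balb/c tumours and 0, 5.45 and 30.4 in the F tumours (log2 fold change 5.51 ± 0.55). In each of these, every Balb/c tumour stood above every F tumour. The IAPEY4_I-int copy at 6720473M11Rik (16, 3624986 to 3633317) ran the other way, with 0, 0.883 and 3.12 in the Balb/c tumours and 30.2, 95.4 and 256 in the F tumours. Its log2 fold change was −5.68 ± 0.37, with an adjusted p of 7.41e-12 from limma.

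Repeat LTRs at the starts of protein-coding genes also differed. The RLTR42 copy with RLTR42-int at the 5′ end of Tfpi, which encodes an inhibitor of blood coagulation, had 125, 175 and 226 in the Balb/c tumours and 5.11, 32.7 and 69.6 in the F tumours (lowest, median and highest). The ORR1E copy at the 5′ end of Naip2, a receptor for bacterial proteins, had 40.1, 49.9 and 85.7 in the Balb/c tumours and 0, 2.82 and 16.9 in the F tumours. The log2 fold changes were 2.61 ± 0.25 for Tfpi and 3.78 ± 0.35 for Naip2, and neither pair of ranges overlapped. The copies at Apobec1, which encodes a cytidine deaminase (RLTR19-int, 2.41 ± 0.25), and at Fblim1, which encodes an adaptor of cell adhesions (MLT1F1, 2.94 ± 0.45), also did not overlap between the sides. A read on such a copy may come from a transcript that starts there or from one that runs through it, and counts per copy do not separate the 2.

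The libraries were of similar depth. The reads recovered from the deposited values numbered 1690015 to 2342103 per Balb/c library and 1502938 to 2050776 per F library, within 1280522 to 2976730 over all 40. Summed scaled repeat signal was 1895533 to 2100483 in the Balb/c libraries and 1674009 to 1819025 in the F libraries, without overlap. Copies in 3′ UTRs took 51.0% ± 2.98 of the signal in Balb/c libraries and 48.3% ± 3.92 in F libraries (SD, n = 7 and 13). Introns took 20.52% ± 2.72 in Balb/c libraries and 19.9% ± 4.03 in F libraries, and the exact permutation test, adjusted over 5 such shares, gave 0.208 for 3′ UTRs and 0.710 for introns. The share in noncoding exons was lower in Balb/c libraries, at 11.1% ± 0.297, against 13.6% ± 1.34 in F libraries (adjusted p = 0.00161, exact permutation test, two-sided). Because most signal lies within genes, a value of a copy in an exon or intron can follow its host gene, and in bulk RNA fewer cells of a type and less RNA per cell cannot be told apart.

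Of 835636 copies in the table, 31045 (3.72%) had a mean signal of at least 5 over the 20 libraries and were tested, and they held 84.5% of the signal. Of these, 5303 were higher in the Balb/c passages (17.1%) and 4253 were lower (13.7%) at an adjusted p under 0.05. The stricter count, a call in the same direction in all 6 pairs of passages, held 1038 higher copies (3.34%) and 340 lower copies (1.1%). For 1011 copies (3.26%) all 7 Balb/c values lay above all 13 F values, and for 288 (0.928%) all lay below. Both conditions were met by 767 higher copies (2.47%) and 231 lower copies (0.744%). Between Balb/c-2 and Balb/c-1, limma and edgeR each called 0 copies higher and 0 lower, with 2966 and 2537 copies at an unadjusted p under 0.05, and DESeq2 called 11 higher and 7 lower. Among the 3 F passages 3 copies differed by limma's F test. Of the 1378 copies called in every passage, 0 were called between the Balb/c passages and 2 among the F passages, by limma.

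By place in the genome, the share of copies called in every passage was largest outside genes, with no test of that difference. Of 3274 tested intergenic copies, 220 were higher in every passage (6.72%) and 75 lower (2.29%). Of 8503 tested copies in 3′ UTRs, 482 were higher (5.67%) and 97 lower (1.14%). Intron copies had the lowest shares of these 3 places, with 177 higher (1.42%) and 67 lower (0.538%) of 12447. Of the 1038 higher copies, 818 lay in 521 host genes and 641 of the 818 lay in their exons. Of the 340 lower copies, 265 lay in 191 host genes and 198 of the 265 lay in their exons. Of all 31045 tested copies, 27771 lay in host genes and 15721 lay outside exons. The called copies thus lay in host genes less often than the tested copies did, with no test of that difference. Copies of 1 host gene share their transcripts and are not separate observations.

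**Figure D1:**
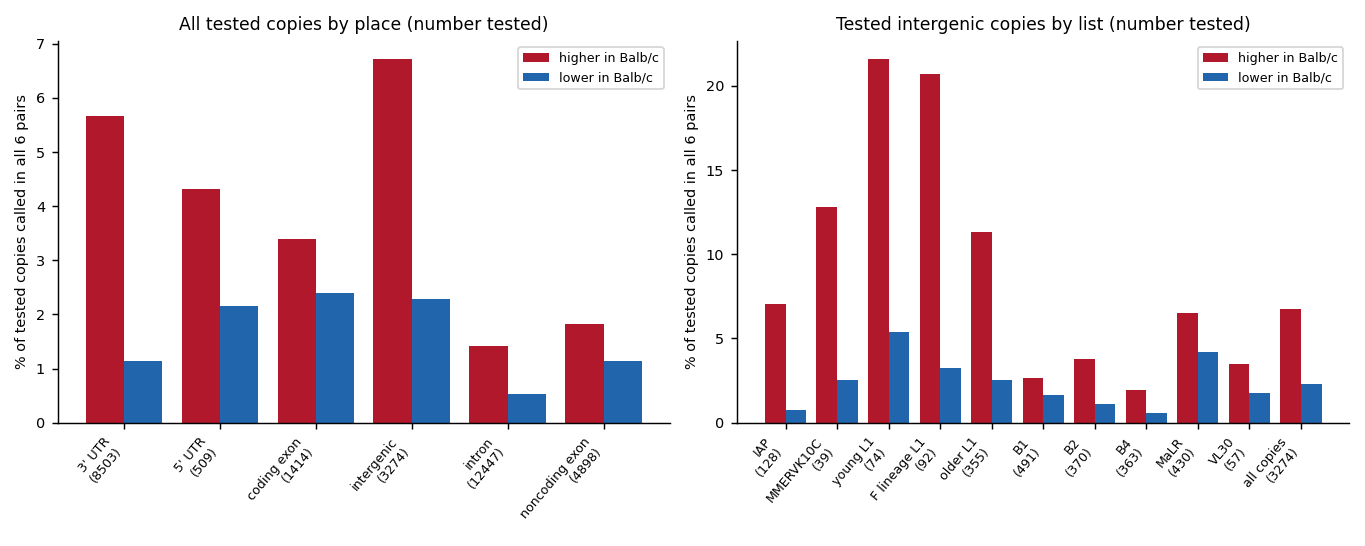
Share of tested copies called in all 6 pairs of passages, in percent, as red bars for copies higher in Balb/c and blue bars for copies lower in Balb/c. The left panel splits all tested copies by place in the genome and the right panel splits intergenic copies by repeat list, with the number tested in brackets. Intergenic copies of young L1 (21.6%) and of F lineage L1 (20.7%) stand above the 6.72% of all intergenic copies. Their blue bars (5.41% and 3.26%) stand above the 2.29% of all intergenic copies as well. The ETn/MusD and MIR lists are not drawn.

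Among intergenic copies, the L1 lists lay above the 6.72% of all intergenic copies that were higher in every passage. Young L1 (the A, Tf, Gf and T groups) had 16 of 74 tested intergenic copies higher (21.6%) and 4 lower (5.41%). F lineage L1, the older L1MdF, L1MdV and L1MdN groups, had 19 of 92 higher (20.7%) and 3 lower (3.26%). Older L1 (Lx, L1_Mus and L1M groups) had 40 of 355 higher (11.3%) and 9 lower (2.54%). The SINE lists lay below that share, with 13 of 491 B1 copies higher (2.65%), 14 of 370 B2 copies (3.78%) and 7 of 363 B4 copies (1.93%). IAP copies, with 9 of 128 higher (7.03%) and 1 lower (0.781%), lay near that background. The MMERVK10C list had 5 of 39 higher (12.8%), above older L1, and ETn/MusD had 1 of 9 (11.1%), on few copies. Each of the L1 lists also lay above the 2.29% of all intergenic copies that were lower in every passage. Without passage Balb/c-1, 10 young L1 and 10 F lineage L1 copies were higher in every passage. These shares are descriptions, since neighbouring copies can belong to 1 transcript and young copies resemble each other closely enough for reads to fit several of them. The labels and the file do not state how such reads were counted.

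The copy with the largest fold change outside exons was an L1MdF_V element of 3065 bases between genes on chromosome 4 (39457744 to 39460808). Its signal was 82.9 at the lowest, 144 at the median and 213 at the highest in the Balb/c tumours, and it was 0 in all 13 F tumours. Against a floor of 3 reads per library it was at least 49.3-fold higher in the Balb/c tumours. In libraries outside the comparison it was at 57.5 to 64.5 in the 3 CBA tumours, at 0 to 197 in the 11 tumours of the N2 passages, and at 0 in all 3 parental YUMM1.7 cultures.

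An internal MMERVK10D3 copy with RLTR10D2, an endogenous retrovirus in an intron of the palmitoyltransferase gene Zdhhc14 (17, 5522679 to 5524684), reached the highest signal of these. It had 269, 2107 and 5922 in the Balb/c tumours and 0, 7.65 and 240 in the F tumours (lowest, median and highest). The lowest Balb/c tumour stood just above the highest F tumour, and the log2 fold change was 6.97 ± 0.77 with an adjusted p of 1.02e-07 (limma). This copy neighbours the one at the Gm52305 start printed above. It was at 90.0 to 5354 in N2 tumours and at 0 to 26.1 in the YUMM1.7 cultures.

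On chromosome 7 an Lx5 copy (137819978 to 137820338) and an Lx8 copy (137753529 to 137754650), both older L1, ended a group of 8 intergenic copies called in every passage. The Lx5 copy had 14.5, 340 and 896 in the Balb/c tumours and 0, 0 and 3.65 in the F tumours (7.04 ± 0.54, adjusted p = 1.94e-10, limma). The Lx8 copy had 8.02, 273 and 533 in the Balb/c tumours and 0, 0 and 2.25 in the F tumours (6.38 ± 0.53). Both were lower in 2 of the 3 Balb/c-2 tumours than in the other Balb/c tumours, as the plot of single copies shows, and yet above all F tumours. Summed over the 8 copies the signal was 60.7, 1230 and 2847 in the Balb/c tumours and 0, 0.9 and 8.6 in the F tumours.

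An L1MCc copy on chromosome 8 (107679329 to 107680201) was tightly grouped, with 98.0, 109 and 141 in the Balb/c tumours and 0, 0 and 2.74 in the F tumours (6.41 ± 0.34, adjusted p = 1.46e-13, limma). An RLTR45-int copy of 5356 bases on chromosome 18 (18830966 to 18836321), the inner part of an ERVK retrovirus, had 38.9, 110 and 160 in the Balb/c tumours and 0, 0 and 0.911 in the F tumours (6.39 ± 0.32). It ended a group of 13 intergenic copies within 73.8 kb, each picked because it was higher in every passage. The group included IAP1-MM, L1MdV_I, Lx2 and L1MdTf_III copies. The summed signal of these picked copies was 363, 660 and 1086 in the Balb/c tumours and 0, 3.5 and 16.5 in the F tumours.

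The lowest copies outside exons include a pair in Rasgrf1, an imprinted gene for a Ras exchange factor. The ID_B1 copy (9, 90019290 to 90019486) and the MER20 copy (9, 90017589 to 90017753) lie in its introns and were at 0 in all 7 Balb/c tumours. In the F tumours the ID_B1 copy had 1.76, 72.2 and 369 and the MER20 copy had 5.64, 39.3 and 187 (lowest, median and highest). Both were also at 0 in all CBA tumours, while the YUMM1.7 cultures had 109 to 156 for ID_B1 and 68.6 to 90.9 for MER20. The exon copies of Rasgrf1 fell as well, by 3.09 ± 0.55 on the log2 scale.

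An RMER19B LTR on chromosome 5 (104197201 to 104198095), which covers the RefSeq start of Dmp1, a gene of bone matrix, had 0, 2.24 and 5.30 in the Balb/c tumours and 21.6, 77.5 and 197 in the F tumours (−5.22 ± 0.41). An ORR1F copy on chromosome 3 (123265980 to 123266207) had 0, 1.04 and 12.4 in the Balb/c tumours and 16.5, 43.0 and 100.4 in the F tumours (−4.41 ± 0.36). An L2b copy on chromosome 11 (70204613 to 70204907) had 0, 0 and 16.03 in the Balb/c tumours and 34.7, 47.4 and 88.5 in the F tumours (−4.37 ± 0.42). The L2b copy is part of the largest lower group, 11 copies called in every passage over 49.1 kb by Bcl6b, Slc16a11 and Slc16a13. Their summed signal was 281, 328 and 979 in the Balb/c tumours and 1330, 2233 and 3629 in the F tumours.

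**Figure D2:**
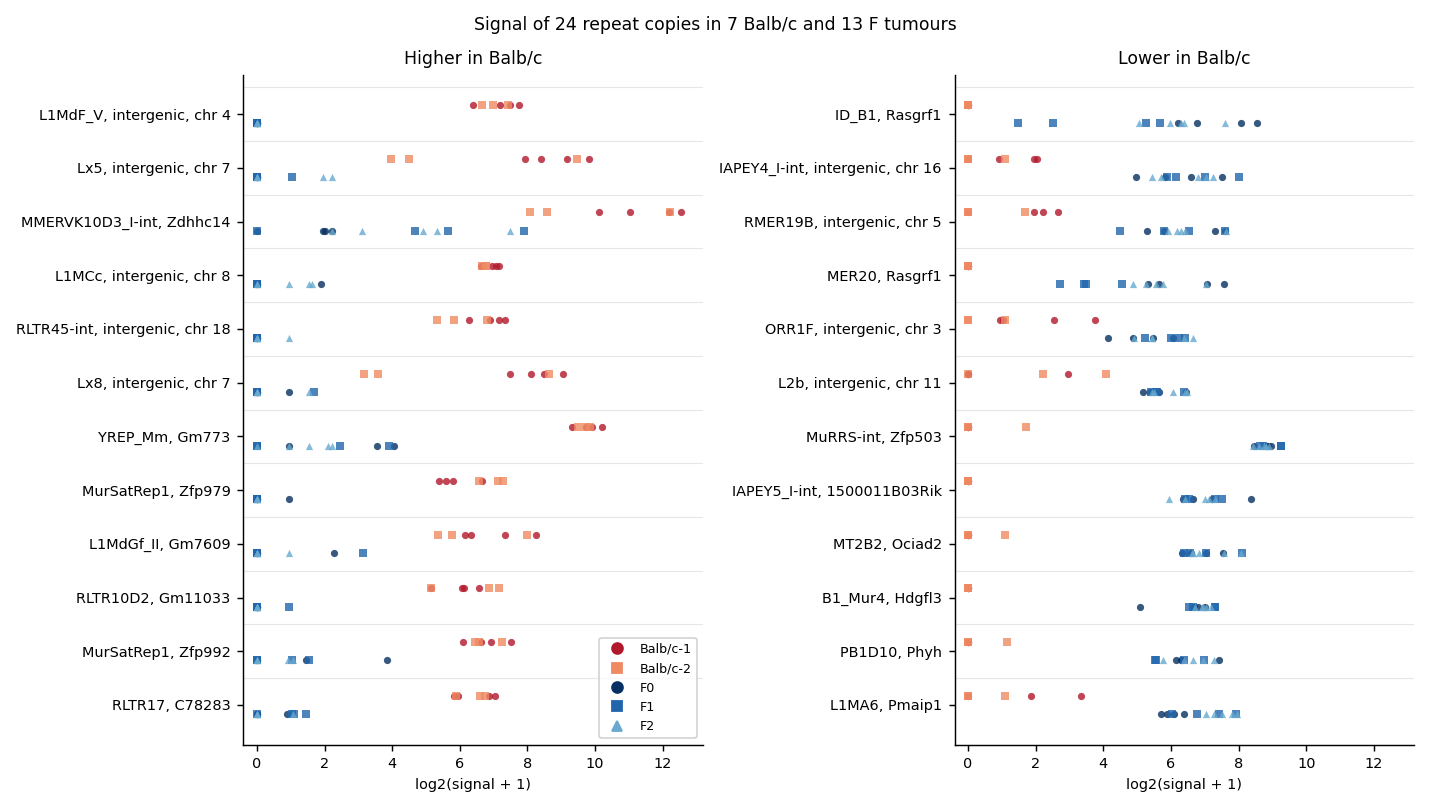
Signal of 24 repeat copies, as log2(signal + 1), with 1 point per tumour; Balb/c tumours are drawn in red tones above F tumours in blue tones on each row. In the left panel the Balb/c points lie right of all F points, and in the right panel they lie left of all F points. The copies were chosen by that absence of overlap and by fold change.

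Copies in exons are read as parts of their host transcripts. The highest was a YREP_Mm copy in the coding exon of Gm773 on the X chromosome (56196019 to 56196584), with 637, 844 and 1174 in the Balb/c tumours and 0, 1.91 and 15.6 in the F tumours. The log2 fold change was 8.04 ± 0.50 (adjusted p = 4.61e-12, limma), and the CBA tumours lay within the Balb/c range, at 715 to 802. MurSatRep1 copies marked zinc finger genes on chromosome 4. The copy in Zfp979 (147615262 to 147615402) had 40.5, 93.0 and 153 in the Balb/c tumours and 0, 0 and 0.914 in the F tumours, and the copy in Zfp992 (146464399 to 146464547) had 67.3, 97.8 and 181 in the Balb/c tumours and 0, 0 and 13.5 in the F tumours. In Zfp979 and the nearby Zfp985, 8 copies were higher in every passage, with a summed signal of 109, 319 and 626 in the Balb/c tumours and 0, 0 and 1.9 in the F tumours. The YUMM1.7 cultures were at 0 over these 8 copies.

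Noncoding transcripts gave 3 of the 6 highest exon copies. The L1MdGf_II copy in Gm7609 (1, 85213557 to 85213766) had 40.1, 79.4 and 306 in the Balb/c tumours and 0, 0 and 7.88 in the F tumours. The RLTR10D2 copy in Gm11033 (8, 74833860 to 74834210) had 34.4, 69.2 and 141 in the Balb/c tumours and 0, 0 and 0.940 in the F tumours. The RLTR17 copy in C78283 (5, 73946184 to 73946853) had 56.2, 95.4 and 132 in the Balb/c tumours and 0, 0 and 1.76 in the F tumours. Their log2 fold changes lay between 5.97 and 6.18, and all 3 pairs of ranges were apart.

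The lowest exon copy was a MuRRS-int fragment of 91 bases in the 5′ UTR of Zfp503 (14, 21987495 to 21987585), a gene for a zinc finger transcriptional repressor. It had 0, 0 and 2.29 in the Balb/c tumours and 343, 445 and 613 in the F tumours, a log2 fold change of −8.52 ± 0.19 (adjusted p = 1.25e-21, limma). An IAPEY5_I-int copy in 1500011B03Rik (5, 114822402 to 114822901) was at 0 in all Balb/c tumours and at 59.97, 126 and 328 in the F tumours. A B1_Mur4 copy in the 3′ UTR of Hdgfl3 (7, 81884148 to 81884294) was also at 0 in all Balb/c tumours and at 32.7, 120 and 157 in the F tumours. Against 3 reads per library these were at least 42.8-fold and at least 37.0-fold lower in the Balb/c tumours.

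The other low exon copies lay in coding genes. The MT2B2 copy in Ociad2 (5, 73332075 to 73332316) had 0, 0 and 1.12 in the Balb/c tumours and 78.6, 112 and 275 in the F tumours. The PB1D10 copy in the 3′ UTR of Phyh (2, 4938393 to 4938456), an enzyme of peroxisomal fatty acid oxidation, had 0, 0 and 1.21 in the Balb/c tumours and 45.1, 82.9 and 171 in the F tumours. The L1MA6 copy in the 3′ UTR of Pmaip1 (18, 66464334 to 66464835), which encodes the apoptosis protein Noxa, had 0, 0 and 9.21 in the Balb/c tumours and 51.2, 131 and 246 in the F tumours. All 6 of these exon copies were at 0 in the 3 CBA tumours and at 31.9 or more in the 3 YUMM1.7 cultures.

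Summed over exon copies, 7294 host genes were tested, of which 1844 were higher (25.3%) and 1276 lower (17.5%), and 442 were higher (6.06%) and 159 lower (2.18%) in every passage. Beside genes already given, the highest were Zfp985 with 63.6, 200.4 and 441 in the Balb/c tumours and 0, 0 and 3.38 in the F tumours, and Raet1e, a ligand of the natural killer cell receptor NKG2D, with 143, 298 and 521 in the Balb/c tumours and 0, 5.48 and 63.2 in the F tumours. Lrrc75b had 97.3, 286 and 359 in the Balb/c tumours and 0, 1.91 and 43.9 in the F tumours. None of these ranges overlapped. Among the lowest, Sox7, a transcription factor known from endothelial cells, was at 0 in all Balb/c tumours and at 13.18, 69.1 and 157 in the F tumours. Klhl13, an adaptor of a ubiquitin ligase, had 0, 0.961 and 4.83 in the Balb/c tumours and 70.9, 115 and 213 in the F tumours, and Phactr2 had 0, 0 and 3.69 in the Balb/c tumours and 43.9, 93.1 and 158 in the F tumours.

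Some copies were read on one side only. Of 632081 copies with a value above 0 in at least 1 of the 20 libraries, 215 had reads in all 7 Balb/c tumours and 0 in all 13 F tumours (0.034%). The reverse held for 58 copies (0.00918%). The 215 were mostly intergenic (127) or in introns (68), and 82 were L1 and 35 ERVK copies. The X chromosome held 38 of them and chromosome 4 held 35. How the 632081 copies divide by place, family and chromosome was not counted, so these numbers give no enrichment. All 3 YUMM1.7 cultures averaged 0 for 201 of the 215, while 193 had a mean above 0 in N2.1 and 201 in the CBA tumours. Of the 58 copies read only in F tumours, 57 had a mean above 0 in the YUMM1.7 cultures and 40 were at 0 in the CBA tumours. The shares of all 632081 copies above 0 in these other groups were not counted either. With 3 reads as the limit that a count of 0 allows, most of these copies are too low for a firm statement: 61 of the 215 and 24 of the 58 averaged at least 10 on the side where they were read.

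Of 996 tested subfamilies, the sum of all copies of 1 repeat name, 459 were higher (46.1%) and 78 lower (7.83%) in the Balb/c passages, and 150 were higher (15.1%) and 9 lower (0.904%) in every passage. This balance differed between the tools. The median log2 fold change over all 996 was 0.28 with limma on the deposited scaling and 0.01 with edgeR, which called 220 higher and 223 lower, while DESeq2 called 224 higher and 226 lower. Another scaling within limma, with factors from the tested copies and not from the subfamily sums, kept the balance. It gave 419 higher and 88 lower under TMM and 436 higher and 87 lower under median-of-ratios scaling. The count tools change the model and the scaling together, so which of the 2 moves the balance was not tested. Small fold changes of subfamilies are therefore read against a median of 0.28.

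MMERVK10D3_I-int stood out in amount. Its summed signal was 1737, 5645 and 15837 in the Balb/c tumours and 388, 647 and 1435 in the F tumours, a log2 fold change of 3.05 ± 0.30 (adjusted p = 3.2e-08, limma). The Zdhhc14 copy made up 36.4% of the Balb/c sum and 6.35% of the F sum, and of 30 tested copies 14 were higher and 3 lower, 7 and 1 of them in every passage. LTR67B, an older LTR, had 234, 531 and 986 in the Balb/c tumours and 75.6, 103 and 140 in the F tumours (2.35 ± 0.19), with 8 of 9 tested copies higher and 6 in every passage. Beside both subfamilies, 17.1% of all tested copies were higher and 13.7% lower, and 3.34% and 1.1% in every passage. IAPEY4_I-int had 3801, 5240 and 7064 in the Balb/c tumours and 1142, 1793 and 2580 in the F tumours (1.65 ± 0.16), and its copy in Gm43197 held 56.8% of the Balb/c sum and 28.1% of the F sum. These 3 ranges did not overlap.

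Several of the largest subfamily changes came from 1 copy. RLTR10D2 (4.78 ± 0.39) took 95.0% of its Balb/c signal from the Gm11033 copy, Eulor10 (3.12 ± 0.43) took 97.0% from a copy in the 3′ UTR of Adamts6, and MER89 (2.68 ± 0.24) took 92.0% from the 3′ UTR of the interferon gene Oasl1. On the lower side IAPEY5_I-int (−5.20 ± 0.25) took 96.4% of its F signal from the 1500011B03Rik copy, and MARE6 (−4.35 ± 0.21) took 98.8% from a coding exon of Zcchc3. MARE6 had 4.58, 7.06 and 23.9 in the Balb/c tumours and 122, 182 and 259 in the F tumours. MuRRS-int (−1.76 ± 0.11) took 65.9% of its F signal from the Zfp503 copy, and over copies outside exons its difference was 0.62. ERVB2_1-I_MM (3.00 ± 0.53), which was not called in every passage, took 57.9% of its Balb/c signal from the 3′ UTR of Ifi208. LTR81B (3.65 ± 0.40) and RLTR13D (2.99 ± 0.42) were low, with Balb/c medians of 78.5 and 60.4 and F medians of 4.22 and 4.50. UCON7 (−2.89 ± 0.44), MER97a (−2.53 ± 0.35), UCON8 (−2.15 ± 0.51), Tigger17 (−1.70 ± 0.59) and MamGypLTR1d (−1.59 ± 0.29) had Balb/c medians of 0 to 16.03 and F medians of 11.3 to 47.4.

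L1 was the group whose share of the whole repeat signal was apart on the 2 sides. Young L1 took 0.571%, 0.612% and 0.697% of the signal in the Balb/c tumours and 0.476%, 0.493% and 0.556% in the F tumours (lowest, median and highest). F lineage L1 took 1.32%, 1.58% and 1.71% in the Balb/c tumours and 0.921%, 1.02% and 1.28% in the F tumours. Older L1 took 7.28%, 7.49% and 7.94% in the Balb/c tumours and 6.50%, 6.82% and 7.11% in the F tumours. Of 17 repeat lists, only these 3 had no overlap of the 7 Balb/c and 13 F shares.

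Within the lists, 11 of 12 young L1 subfamilies and 11 of 11 F lineage L1 subfamilies were higher and 0 lower by limma, with median log2 fold changes of 0.63 and 0.72 beside 0.28 over all subfamilies. Of all subfamilies, 46.1% were higher and 7.83% lower by limma. By edgeR 8 of 12 young L1 were higher and 1 lower, and 10 of 11 F lineage L1 were higher and 0 lower, with medians of 0.34 and 0.45. Over all 996 subfamilies edgeR called 220 higher and 223 lower, with a median of 0.01. Over copies outside exons alone, 10 of 12 young L1 were higher and 1 lower, and 11 of 11 F lineage L1 were higher, beside 318 higher and 28 lower of all 902 subfamilies. Older L1 had 70 of 111 higher and 3 lower by limma (median 0.37), against 35 higher and 18 lower by edgeR (median 0.10). L1MdGf_II had 2292, 2744 and 3353 in the Balb/c tumours and 1387, 1646 and 2162 in the F tumours (0.76 ± 0.08), and L1MdFanc_I had 3464, 6781 and 7395 in the Balb/c tumours and 1422, 2084 and 3606 in the F tumours (1.46 ± 0.18). L1MdA_VII did not pass the test (0.03 ± 0.07, adjusted p = 0.758, limma).

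Host genes carried part of the L1 signal. The Laptm4a coding exon copy held 85.1% of the Balb/c sum of L1MdF_III, which was higher by 0.48 ± 0.11. For Lx8 (0.56 ± 0.06) a copy in the 3′ UTR of the interferon gene Ifi44 held 13.3% of the Balb/c sum and 1.69% of the F sum.

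Retroviral lists were mixed and, summed over all copies, lay near or below the 46.1% of all subfamilies that were higher by limma. Of all subfamilies, 7.83% were lower by limma. Except for ETn/MusD, with 0 lower, the retroviral lists lay above that share, on 1 to 3 lower subfamilies each. IAP had 9 of 23 subfamilies higher and 2 lower by limma, and its most abundant member, IAPEz-int, had 5369, 7082 and 20058 in the Balb/c tumours and 4889, 6271 and 8614 in the F tumours (0.33 ± 0.18, adjusted p = 0.129). The MMERVK10C list had 6 of 14 higher and 2 lower by limma and 4 higher and 4 lower by edgeR. By limma VL30 had 1 of 5 higher and 1 lower, MuLV 2 of 5 higher and 3 lower, MERVL 2 of 8 higher and 2 lower, and ETn/MusD 2 of 4 higher and 0 lower. ETnERV2-int, a member of the last list, had 126, 396 and 733 in the Balb/c tumours and 35.3, 70.2 and 215 in the F tumours (2.34 ± 0.29), so its ranges overlapped. Over copies outside exons, 318 of 902 subfamilies were higher and 28 lower by limma (median 0.31). There IAP had 9 of 20 higher and 0 lower, MERVL 4 of 8 and 0, and MMERVK10C 5 of 13 and 1. MuLV had 4 of 5 higher and 1 lower (median 0.61), and ETn/MusD 3 of 4 and 0 (median 0.66). VL30 had 0 of 5 higher and 0 lower (median 0.06). Among SINEs, B1 had 13 of 15 higher by limma but 0 higher and 6 lower by edgeR, and B4 had 4 of 7 higher by limma but 0 higher and 5 lower by edgeR. Within limma, TMM scaling with factors from the tested copies left 10 B1 and 2 B4 subfamilies higher and 0 lower. The count tools took their factors from the subfamily sums instead. Whether the model or the scaling changed the direction was therefore not tested.

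**Figure D3:**
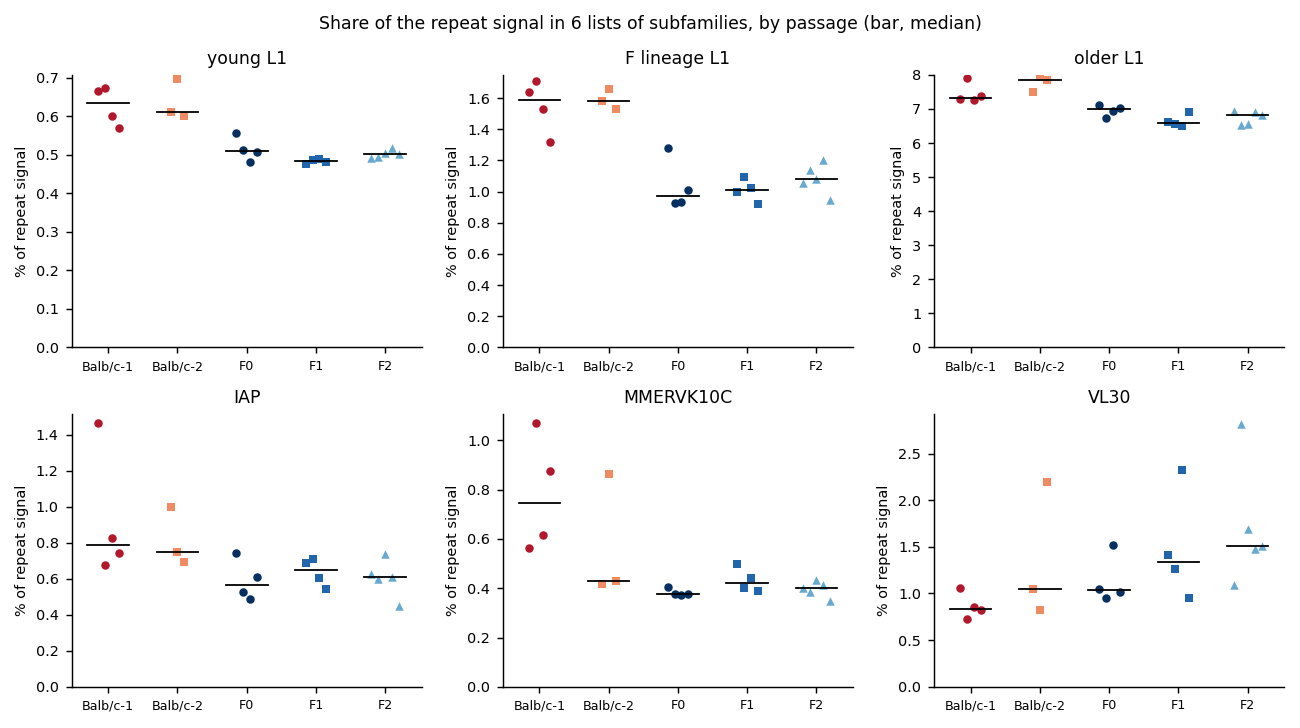
Share of the summed repeat signal, in percent, in 6 lists of subfamilies, with 1 point per tumour and a bar at each passage median; the Balb/c passages stand left of the F passages. The L1 panels in the top row have no overlap between Balb/c and F tumours (young L1 0.571% to 0.697% against 0.476% to 0.556%), while IAP, MMERVK10C and VL30 overlap.

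Repeat copies in exons of interferon response genes were higher in the Balb/c tumours. The list held 36 genes, of which 27 have an exon copy and 25 were tested, and all 25 were higher (25.3% of all host genes were). In every passage 14 were higher (6.06% of all host genes were), and this stricter count rested on single tumours: it was 3 without Balb/c-1 A, 9 without Balb/c-1 B, 5 without Balb/c-1 C and 5 without F2 E, and it was 23 without passage F2. By edgeR 10 and by DESeq2 8 were higher in every passage. Their median log2 fold change was 3.19, beside 0.04 over all host genes. The summed signal was 10765, 29241 and 47611 in the Balb/c tumours and 1421, 3418 and 16028 in the F tumours. The sides overlapped by 1 tumour each: F2 D, the highest F tumour, stood above Balb/c-1 D, the lowest Balb/c tumour. The genes of the list hold 138 tested copies in exons and introns, of which 49, in 18 genes, were higher in every passage and 0 lower. Of all tested copies, 3.34% were higher and 1.1% lower in every passage.

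Sensors of foreign RNA and DNA were among the genes raised. Zbp1, a receptor for Z-form nucleic acids, had 104, 614 and 2168 in the Balb/c tumours and 0, 15.5 and 246 in the F tumours (5.72 ± 0.81). Ifih1, which encodes the double-stranded RNA receptor MDA5, had 279, 642 and 1236 in the Balb/c tumours and 12.1, 86.4 and 354 in the F tumours (2.92 ± 0.41), and Ddx58, which encodes RIG-I, had 461, 1051 and 1830 in the Balb/c tumours and 28.1, 201 and 659 in the F tumours (2.70 ± 0.44). For each of the 3 a single Balb/c tumour fell below the highest F tumour. The kinase gene Eif2ak2, whose product PKR is activated by double-stranded RNA, had 2331, 3975 and 4906 in the Balb/c tumours and 392, 918 and 2253 in the F tumours (2.02 ± 0.24, adjusted p = 1.14e-06), with no overlap.

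Effectors followed. Isg15, a ubiquitin-like protein, had 47.9, 158 and 327 in the Balb/c tumours and 0, 4.37 and 44.9 in the F tumours (5.09 ± 0.57, adjusted p = 4.41e-07, limma). Rsad2, which encodes viperin, had 73.3, 328 and 713 in the Balb/c tumours and 0, 9.84 and 58.3 in the F tumours (5.04 ± 0.73). The GTPase gene Irgm1 had 897, 1652 and 2879 in the Balb/c tumours and 65.9, 140 and 483 in the F tumours (3.28 ± 0.33). In these 3 genes no F tumour reached the lowest Balb/c tumour. Oas2, an enzyme that makes the activator of RNase L, had 65.6, 371 and 572 in the Balb/c tumours and 0, 0 and 97.5 in the F tumours (6.27 ± 0.91). Ifit1, an RNA-binding inhibitor of translation, had 801, 2062 and 4058 in the Balb/c tumours and 12.1, 102 and 953 in the F tumours (3.74 ± 0.57). In both, 1 F tumour stood above the lowest Balb/c tumour. The signalling genes Stat2 (2.21 ± 0.35) and Irf9 (2.68 ± 0.45), whose products act downstream of the interferon receptor, were higher too. Ifit2 moved least (0.74 ± 0.24), and 7 F tumours exceeded its lowest Balb/c value.

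The start regions of the interferon genes are shown because these genes share a response element. The letters GAAANNGAAA were searched on both strands in the 250 bases before each RefSeq start, and overlapping matches were counted. They occurred at 8 of the 18 tested interferon list genes that have a window (44.4%), at 1 of 11 tested antigen presentation genes (9.09%), at 936 of 27025 genes with a window (3.46%), at 175 of 5369 tested host genes (3.26%), at 20 of 308 host genes higher in every passage that are on neither list (6.49%) and at 0 of 114 lower in every passage. The stretches are from RefSeq, build GRCm38.p6, on the gene's strand, with matches in capitals.
Isg15: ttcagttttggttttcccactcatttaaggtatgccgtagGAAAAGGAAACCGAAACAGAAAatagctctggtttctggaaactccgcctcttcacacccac
Ifit1: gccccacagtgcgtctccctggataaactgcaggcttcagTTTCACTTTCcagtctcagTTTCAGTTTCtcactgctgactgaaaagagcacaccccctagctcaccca
Rsad2: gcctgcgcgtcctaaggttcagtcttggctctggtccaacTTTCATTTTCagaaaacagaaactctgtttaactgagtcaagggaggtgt
Isg15 (chr4:156200835-156200936, minus strand) holds 3 matches, Ifit1 (chr19:34640745-34640853, plus strand) holds 2 and Rsad2 (chr12:26456523-26456612, minus strand) holds 1. A match is a description of the letters and not a measured site.

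Antigen presentation genes were higher as a group, with exceptions. Of 20 genes 17 have an exon copy and 13 were tested, and 9 were higher, 1 was lower and 4 were higher in every passage, beside 25.3%, 17.5% and 6.06% of all host genes. Their median log2 fold change was 1.84, beside 0.04 over all host genes. Nlrc5, the activator of MHC class I genes, had 106, 349 and 494 in the Balb/c tumours and 0.867, 21.9 and 84.4 in the F tumours (4.21 ± 0.51). Erap1, a peptide-trimming protease, had 380, 486 and 767 in the Balb/c tumours and 152, 211 and 354 in the F tumours (1.37 ± 0.17). Neither overlapped. The class I gene H2-D1 had 3001, 7360 and 9762 in the Balb/c tumours and 574, 1146 and 3719 in the F tumours (2.41 ± 0.26). H2-Q4 (4.21 ± 0.62), Tap1 (2.63 ± 0.55), Tapbp (1.84 ± 0.33) and Cd274 (2.13 ± 0.37), which encodes the checkpoint ligand PD-L1, also rose but not in every passage. The chaperone gene Calr fell by 1.05 ± 0.31 on the log2 scale. MHC class I genes are near copies of each other, so their counts are uncertain.

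Markers of other cells were checked beside these lists. Fibroblast markers with an exon copy summed to 1730, 2115 and 3092 in the Balb/c tumours and 747, 1332 and 3337 in the F tumours, nearly all from Pdgfrb (1.06 ± 0.21), Pdgfra (−0.78 ± 0.18) and Postn (3.66 ± 1.03), while the other 4 of the 7, Col1a1, Dcn, Thy1 and Fap, stayed at 7.37 or less. Leukocyte markers, 7 of 12 with a copy, summed to 17.2, 24.02 and 36.9 in the Balb/c tumours and 3.06, 15.6 and 41.7 in the F tumours. Of these Ptprc, which marks all leukocytes, was at 0 in all Balb/c tumours and at most 1.07 in the F tumours. The 2 endothelial markers were at 0 in all Balb/c tumours and at most 0.914 in the F tumours, and the 3 keratinocyte markers summed to at most 2.24 in the Balb/c tumours and 2.87 in the F tumours. Of 15 melanocyte markers 5 have an exon copy, and Mlana, Tyr, Oca2 and Rab27a were at 5.47 or less in every tumour, so that only Pax3 marked the lineage, with 7.85, 18.3 and 24.97 in the Balb/c tumours and 5.47, 10.1 and 15.8 in the F tumours. The part of fibroblast RNA in the results was not tested.

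**Figure D4:**
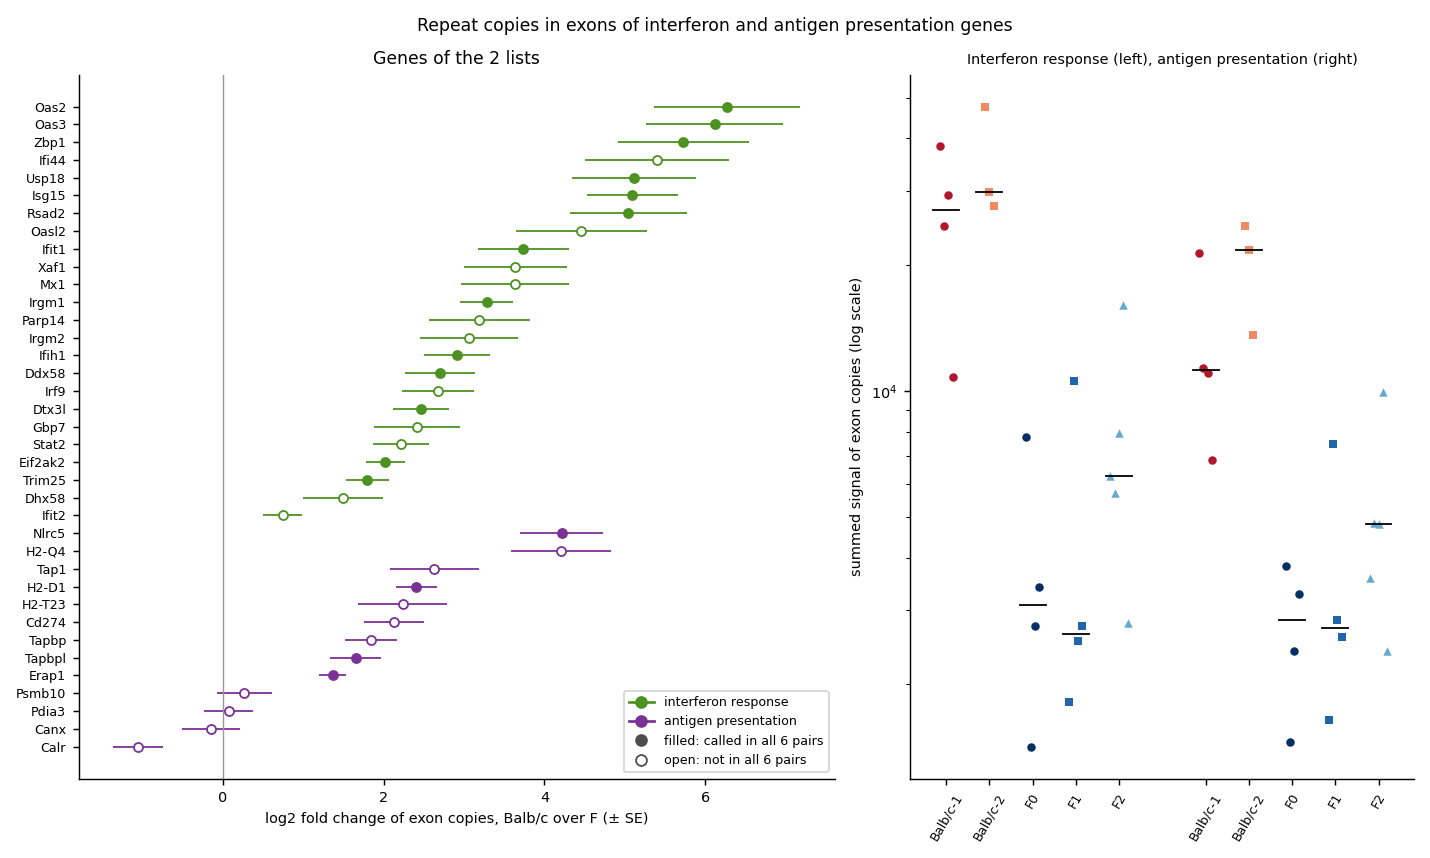
Left, log2 fold change (Balb/c over F, ± SE) of exon copies summed per gene for 24 of the 25 tested interferon response genes and 13 antigen presentation genes, filled where called in all 6 pairs of passages. Right, the summed signal of both lists per tumour on a log axis with a bar at each passage median. All 24 interferon genes drawn lie above 0, and 1 F2 tumour (16028) stands above the lowest Balb/c tumour (10765) in the interferon sum.

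Genes for the silencing of repeats did not move as 1 group. Of 21 tested, 8 were higher and 3 lower, and 2 were higher in every passage, near the 25.3%, 17.5% and 6.06% of all host genes, so these counts are no result about the list. Pphln1, a subunit of the HUSH complex, had 975, 1048 and 1189 in the Balb/c tumours and 490, 626 and 772 in the F tumours (0.80 ± 0.08). Lsm1, the other of the 2, was on the list but is not an established silencer of repeats. It had 323, 452 and 505 in the Balb/c tumours and 167, 250.3 and 321 in the F tumours (0.78 ± 0.12). The other higher ones were Atf7ip, Kdm1a, Cbx5, Uhrf1, Atrx and Zfp809, at 0.35 to 1.74. Trim28, the co-repressor of KRAB zinc finger proteins, fell by 0.99 ± 0.27, the methyltransferase gene Dnmt1 by 1.31 ± 0.35 and Ehmt2 by 1.15 ± 0.32, all on the log2 scale and on few reads. Trim28 had 8.83, 13.7 and 24.98 in the Balb/c tumours and 16.04, 28.2 and 73.6 in the F tumours. For Setdb1, a histone methyltransferase, the difference was −0.04 ± 0.11 (adjusted p = 0.805, limma). Of 4 tested imprinted genes Rasgrf1 was lower, and Impact, Nnat and Plagl1 did not pass the test.

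Copies called in every passage were joined into groups where neighbours called in the same direction lay within 50 kb. Only such copies enter a group, so their shared direction is set by the rule and is no result. Tested copies between them that were not called are left out of these groups. The largest were 15 copies over 51.7 kb in Luc7l2, with a summed signal of 1333, 1495 and 2125 in the Balb/c tumours and 540, 657 and 884 in the F tumours, and 15 copies over 138.4 kb at Gm11884 on chromosome 4. The Gm11884 group, which starts with the copy at the Gm38450 start, had 794, 1138 and 1699 in the Balb/c tumours and 1.9, 11.8 and 145 in the F tumours. Groups of 11 to 13 copies lay in the interferon-related genes Trim30a and Trim30d, Oas2 and Oas3, and Irgm1 with Tgtp2. At Ces5a 9 copies had 54.1, 178 and 803 in the Balb/c tumours and 0, 0 and 0.9 in the F tumours. At Apobec3, whose product restricts retroviruses, 8 copies had 559, 1177 and 1768 in the Balb/c tumours and 41.6, 129 and 409 in the F tumours. Apart from the group by Bcl6b, the lower groups included 8 intergenic copies on chromosome 4 (88978518 to 88983688) with 15.7, 22.95 and 39.4 in the Balb/c tumours and 169, 242 and 408 in the F tumours, and 6 copies in Hdgfl3.

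Whole chromosomes shifted by small amounts. The shift of a chromosome in a library is the median deviation of its exon copies with a mean signal of at least 20, relative to the median chromosome. By the exact permutation test with adjustment over 20 chromosomes, 7 were higher and 7 lower in the Balb/c libraries. The ranges were apart for chromosomes 1 (0.15 higher) and 6 (0.11 higher), and for chromosomes 5, 7 and 8, which fell by 0.083, 0.16 and 0.15 on the log2 scale. The p of chromosomes 1, 6, 7 and 8, 1.29e-05, is the smallest that the 77520 splits of 20 libraries into 7 and 13 can give. The largest shifts were on chromosome 15, at 0.18 ± 0.11 in the Balb/c libraries and −0.10 ± 0.08 in the F libraries, and chromosome 19, at −0.21 ± 0.08 in the Balb/c libraries and 0.11 ± 0.20 in the F libraries (SD, n = 7 and 13). Chromosome 6 held the highest share of copies higher in every passage (104 of 1458, 7.13%) and chromosome 19 the lowest of the autosomes (7 of 1032, 0.678%). The called shifts ran in size from a fall of 0.031 on chromosome 11 to a fall of 0.32 on chromosome 19. The copies named above were picked for large fold changes, and how they relate to these shifts was not tested. With a signal minimum of 50, chromosomes 11 and 14 lost their call and the X chromosome gained one. With all copies in place of exon copies, chromosome 11 lost its call, and chromosome 3 and the X chromosome gained one.

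**Figure D5:**
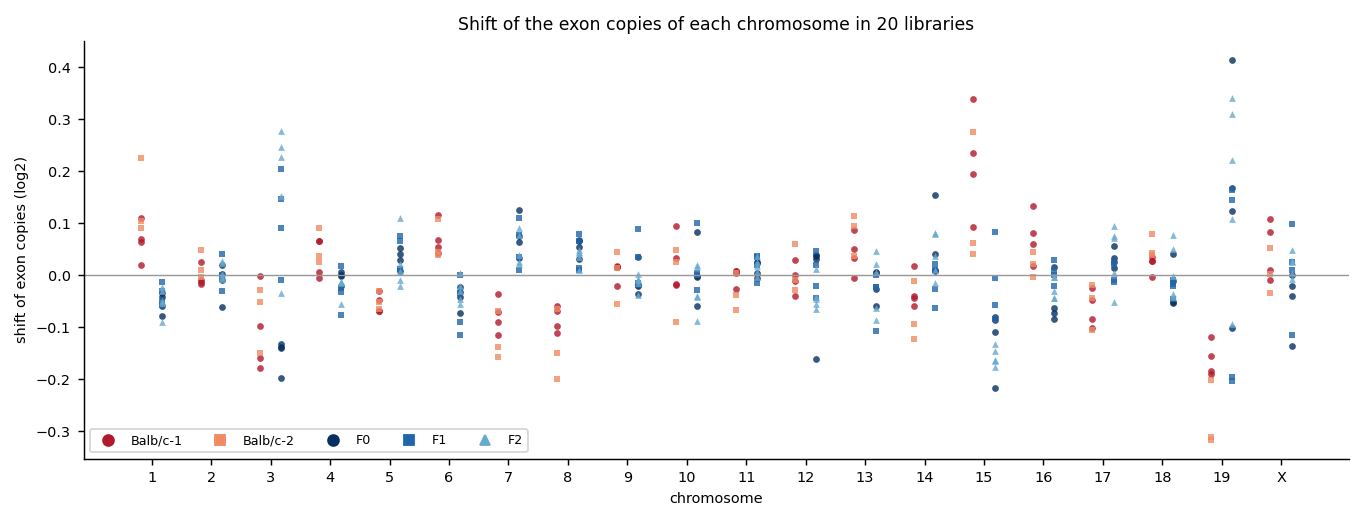
Shift of the exon copies of each chromosome (log2, relative to the median chromosome) with 1 point per library, Balb/c in red tones left of F in blue tones. On chromosomes 1 and 6 the Balb/c points lie above all F points, on chromosomes 5, 7 and 8 below them, and on chromosome 19 the F points spread from −0.20 to 0.41.

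The copies called in every passage were then followed in libraries that the call did not use. In the 11 tumours of passages N2.1, N2.2 and N2.3 against the 3 YUMM1.7 cultures, 934 of the 1038 higher copies were tested, and 645 were higher (69.1%) and 1 lower, while 13.1% of all tested copies were higher. Of the 340 lower copies 304 were tested, and 0 were higher and 178 lower (58.6%), while 3.55% of all tested copies were lower. The median log2 fold change was 1.43 for the higher copies and −1.34 for the lower ones, beside 0.30 over all copies. In the 3 CBA tumours against the same cultures, 370 of 897 tested higher copies were higher (41.2%) and 4 lower, and 197 of 314 tested lower copies were lower (62.7%) and 0 higher, beside 5.9% higher and 3.19% lower over all copies. These 2 comparisons share their YUMM1.7 libraries. They share none with the comparison of Balb/c and F, but all tumours descend from the same line, and the labels do not give the order in which the passages were derived.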

How the data were processed

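The deposited values are a scaled signal per repeat copy that the authors derived from poly(A) RNA reads. Build mm10, featureCounts 1.5.0-p3, StringTie 1.3.3b and HISAT2 2.0.5 are named in the submitters' processing notes. The labels and the file do not state the repeat annotation, the handling of reads that fit several copies or the scaling method. Libraries were directional or non-directional per the labels' protocols, so overlapping and antisense genes cannot be told apart. In the 20 libraries, 100% of the deposited signal values were whole multiples of 1 step to within 0.1 of a read, which gave whole reads. The alternatives with edgeR 4.0.16 and DESeq2 1.42.0 ran on those reads, and both call fewer or other subfamilies than limma, as given beside the results.

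The main test was limma 3.58.1 (R 4.3.3) on log2(signal + 1), with 1 mean per passage and the contrast of the mean of the Balb/c passage means minus the mean of the F passage means, a trended prior and Benjamini-Hochberg adjustment over all features tested. A fold change on this scale understates low copies. Features whose signal averaged 5 or more across the 20 libraries were tested, and a call is an adjusted p under 0.05. A copy was placed by GENCODE M21 (bedtools 2.31.1, at least 1 base of overlap). Shares and chromosome shifts were tested by exact two-sided permutation in scipy 1.17.1. The fits were tested on simulated data with 200 changed copies.

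Named copies were called in every passage without overlap of the Balb/c and F values: the 6 highest and 6 lowest outside exons and the same in exons, at most 2 per host gene. Named subfamilies were the 8 highest and 8 lowest and 2 members of each list, and named host genes the 8 highest and 8 lowest. The members and lists were chosen with earlier results of these data known. A gene of the interferon list is not reported here by name. The floors (3 reads) cover counting error only, while each SE and SD carries the spread between tumours. Alternatives were other scaling, pseudocounts, filters, tools and models, the repeat Balb/c-2 libraries, and each passage or library left out.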

Additional observations from a re-analysis of the deposited data

Results flagged for a closer look

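In 115 sets of values within 1 passage of 4 or 5 tumours, 1 tumour stood far from the rest in 7, and chance sets about 1 in 20 apart. The RMER19B copy on chromosome 5 had 197 in F2 B, against 59.0 to 83.6 in the other F2 tumours. The B1_Mur4 copy in Hdgfl3 had 32.7 in F0 C, against 102 to 128 in the other F0 tumours, and Hdgfl3 as a whole had 48.0 there, against 133 to 163. The PB1D10 copy in Phyh, its 1 counted exon copy, had 171 in F0 A, against 70.3 to 79.7 in the other F0 tumours, so Phyh as a whole also had 171. Summed IAP signal was 29225 in Balb/c-1 A, against 13996 to 15741 in the other Balb/c-1 tumours. Summed older L1 signal was 127398 in F0 A, against 119197 to 120492 in the other F0 tumours.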

How the results depend on the processing

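All 24 named copies and all 16 named host genes kept their direction and their pooled call under every alternative run. They were picked from these same data for large fold changes without overlap, so this was nearly set by the choice. It says nothing about the other copies, and the call in every passage was not followed for them here. Of 1378 copies called in every passage, edgeR also called 801 higher and 278 lower, DESeq2 831 and 292, TMM scaling 857 and 308, and the repeat Balb/c-2 libraries in place of the first 727 and 254. The number of copies called, 9556, became 15798 with a mean of at least 1, 14497 with no filter, 4820 with a mean of at least 20, 5978 with passage means as the units and 5415 without Balb/c-2. Copies called in every passage rose to 2458 without Balb/c-1, when fewer pairs must pass. Subfamilies called fell to 346 over copies outside exons. Host genes called fell to 1850 with passage means as the units and to 1994 without Balb/c-2. In every passage, subfamilies called numbered 159 in the main test, 99 by edgeR, 264 without Balb/c-1 and 47 outside exons, and host genes 1124 without Balb/c-1, beside 601.

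Leaving out 1 library at a time gave 7987 to 9622 copies, 1012 to 1444 copies in every passage, 480 to 549 subfamilies and 2715 to 3137 host genes, and left 23 to 25 interferon genes higher, 3 to 17 of them in every passage. With the tumour letter as a replicate block the counts were 8589 copies, 1138 copies in every passage, 532 subfamilies and 2928 host genes, and 23 of 25 interferon genes were higher, 6 in every passage. The letters do not pair the tumours: correlations of deviations ran from −0.18 to 0.29 over 33 pairs with the same letter, and 3 of 20 libraries were closest to a partner of the same letter.

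Of 1991 alternative values of named subfamilies 1892 kept direction and call, 65 lost the call, 4 gained one and 30 changed sign. Outside exons the difference was −0.17 for MER89, 0.62 for MuRRS-int, 0.60 for MMERVK9C_I-int, 0.45 for MuLV-int, 0.061 for RLTR6-int, 0.32 for MT2B, −0.054 for ORR1B1-int, −0.33 for L1MdA_VII and −0.31 for MIR3. MMERVK9C_I-int was at 0.032 with the repeat Balb/c-2 libraries. By edgeR and DESeq2 alike the difference was −0.17 for ORR1B1-int, −0.12 for PB1D10, −0.11 for B3, −0.16 for B3A, −0.15 for ID_B1, −0.12 for RSINE1, −0.20 for MIRb and −0.24 for MIR3. L1MdA_VII was at −0.25 by edgeR and −0.24 by DESeq2, and URR1A at −0.0070 and −0.0059. The cause was not tested. Depth limits copies of a few reads: 3.72% of all copies could be tested.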
